A study of Mus musculus with 10 samples.

Results

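Respiratory complex I is described here through the messenger RNAs of 42 of its subunits, 35 encoded in the nucleus and 7 in mitochondrial DNA, in the visceral fat of mice with and without a pancreatic tumour. The subunits were chosen by gene name, with earlier results of these data known. All 42 were found among the 16667 genes of the deposited table of normalized counts and in the table of TPM. TPM, a share of all transcripts corrected for transcript length, is the scale on which levels are given. The tissue came from 5 KPC mice, which carried orthotopic pancreatic tumours, and from 5 sham mice, which had sham surgery. KPC tumours come from a mouse model of pancreatic cancer, and an orthotopic tumour is one placed in its organ of origin. All 10 mice were wild type, of the C57BL/6 strain and 10 weeks old, and their sex is not given in the sources used here. RNA was taken from the whole tissue, titled gwat and read here as gonadal white adipose tissue, so fewer cells of a type and less RNA per cell cannot be told apart. Labels list 1 sample for each number within a group, and p-values measure the spread between these samples.

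Complex I, or NADH:ubiquinone oxidoreductase, is the entry point for electrons from NADH into the respiratory chain of the inner mitochondrial membrane. Its matrix arm holds the N module, which oxidises NADH, and the Q module, which passes the electrons to ubiquinone, and its membrane arm pumps protons. The core subunits carry out catalysis, those of the membrane arm are encoded in mitochondrial DNA, and the accessory subunits, all nuclear, surround the core and are needed for assembly or stability. In white fat the respiratory chain supports fat synthesis, fat release and adipokine output, and mitochondrial content is low beside that of brown fat. Subunits were assigned to modules from textbook knowledge of the complex and not from these data.

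Some of these genes share sequence with each other or with copies elsewhere, which bears on how their levels can be read. On the mitochondrial genome (GRCm38, GENCODE vM21) the end of mt-Nd4l and the start of mt-Nd4 lie on 1 strand and share 7 bases, at positions 10167 to 10173. In the windows chrM:10137-10173 (plus strand) and chrM:10167-10203 (plus strand) the shared bases are in capitals.

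mt-Nd4l end: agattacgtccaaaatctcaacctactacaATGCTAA

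mt-Nd4 start: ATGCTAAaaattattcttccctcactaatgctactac

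mt-Nd5 and mt-Nd6 overlap by 14 bases, at positions 13552 to 13565, on opposite strands. The strand setting of the counting is not given in the sources used here, so reads from the overlap cannot be assigned to one of these genes by strand.

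mt-Nd3 has a nuclear copy, the pseudogene Gm28438 on chromosome 1 (24612775 to 24613119, minus strand). All 345 bases of the copy aligned to mt-Nd3 with 1 mismatch, T3C, counted from 1 at the start of mt-Nd3 (chrM:9459-9486, plus strand, in the window shown). The mismatched base is in capitals.

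mt-Nd3: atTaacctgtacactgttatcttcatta

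Gm28438: atCaacctgtacactgttatcttcatta

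Gm28438 had 828 TPM in KPC mice and 985 TPM in sham mice on average, beside 5834 TPM in KPC mice and 6359 TPM in sham mice for mt-Nd3. Reads of the stretch that both share carry nothing that separates them, and their division rests on an estimate by Salmon.

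Ndufb4, which encodes an accessory subunit of the distal membrane arm, has a processed pseudogene, Ndufb4c, on chromosome 15 (73809507 to 73809896, minus strand, GRCm38). All 390 bases of the annotated pseudogene transcript were found without a mismatch at positions 95 to 484 of the 971-base Ndufb4 transcript. Its first 120 bases (chr15:73809777-73809896) are shown, with the start codon in capitals.

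Ndufb4c: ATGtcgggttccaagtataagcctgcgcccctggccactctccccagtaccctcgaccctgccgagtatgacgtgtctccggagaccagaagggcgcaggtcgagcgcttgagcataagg

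The pseudogene was listed at 447 TPM in KPC mice and 416 TPM in sham mice on average, and Ndufb4 itself at 57.3 TPM in KPC mice and 56.3 TPM in sham mice. The level of Ndufb4 is therefore uncertain, and the sum of Ndufb4 with its copies Ndufb4c and Gm16056 averaged 504.7 ± 83.9 TPM in KPC mice and 474 ± 25.4 TPM in sham mice (SD, n = 5 each). On that sum the log2 difference, KPC minus sham, was 0.09 with a 95% interval of -0.21 to 0.40 (limma, adjusted p = 0.797). The near-identical rows of the other nuclear subunits, such as those of Ndufa12, Ndufab1 and Ndufb8, averaged at most 14.6 TPM in either group, far below the subunits themselves.

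Nuclear complex I genes are known targets of the transcription factors NRF1, GABP (an ETS-family factor), YY1 and the estrogen-related receptors. RefSeq promoters (GRCm38.p6, 250 bases before to 50 bases after the start) were found for 32 of the 42 subunits and 27025 genes in all, and both strands were searched. The NRF1 motif, GCGCA and GCGC with 1 base of any kind between them, was in 7 of the 32 (21.9%) and in 5.2% of all promoters. The YY1 motif AANATGGCG was in 7 of the 32 (21.9%) and in 2.8% of all, and the ETS motif CCGGAAG in 4 (12.5%) and in 9.9% of all. The letters ATGGCG of the YY1 motif can also be a start codon and the codon after it. In Ndufa9, Ndufc1, Ndufs4, Ndufs6 and Ndufs7 that motif lay 23 to 36 bases after the start of the transcript. Whether it stood at the start codon there was not tested. The estrogen-related receptor motif TCAAGGTCA was in 0 of the 32 and in 0.5% of all. At least 1 of the 4 motifs was in 17 of the 32 promoters (53.1%) and in 16.2% of all, and median GC content was 59.0% over the subunits' promoters and 52.8% over all. These matches describe the letters and are not evidence of binding.

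Of the promoters with matches, those of Ndufs6, Ndufb4 and Ndufs3 are shown, since they hold an NRF1 with a YY1 match, 3 NRF1 matches and a pair of ETS matches. Matches are in capitals, and none overlaps another. They stand at chr13:73328433-73328732, chr16:37654319-37654618 and chr2:90904672-90904971, all on the minus strand.

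Ndufs6: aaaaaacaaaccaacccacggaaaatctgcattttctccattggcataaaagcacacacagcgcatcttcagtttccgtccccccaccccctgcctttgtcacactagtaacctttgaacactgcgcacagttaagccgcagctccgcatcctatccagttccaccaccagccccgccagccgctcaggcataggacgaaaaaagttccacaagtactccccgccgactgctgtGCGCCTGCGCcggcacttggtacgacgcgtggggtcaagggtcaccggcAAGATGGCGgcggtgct

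Ndufb4: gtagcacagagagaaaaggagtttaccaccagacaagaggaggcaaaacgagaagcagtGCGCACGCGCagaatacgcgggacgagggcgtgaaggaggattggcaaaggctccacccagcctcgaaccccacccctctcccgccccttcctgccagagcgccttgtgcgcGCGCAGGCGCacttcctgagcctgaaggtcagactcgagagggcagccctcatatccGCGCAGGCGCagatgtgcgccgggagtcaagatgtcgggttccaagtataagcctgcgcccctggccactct

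Ndufs3: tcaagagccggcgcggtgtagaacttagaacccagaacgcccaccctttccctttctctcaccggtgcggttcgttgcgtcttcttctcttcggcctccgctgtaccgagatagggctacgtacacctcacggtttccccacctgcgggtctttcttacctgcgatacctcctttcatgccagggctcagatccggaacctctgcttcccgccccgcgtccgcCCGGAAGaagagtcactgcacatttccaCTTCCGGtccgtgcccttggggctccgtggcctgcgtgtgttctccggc

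Library totals of normalized counts ran from 20941242 in KPC mouse 1 to 24449863 in sham mouse 1. The library of KPC mouse 1 stood apart. Mitochondrially encoded mRNAs took 15.7% of its listed TPM, against 26.3% to 32% in the other KPC mice and 26.5% to 33.3% in sham mice. All 11 adipocyte markers were present in every library, with a summed level of 46700 TPM in KPC mouse 1, 55600 to 62180 TPM in the other KPC mice and 56080 to 67120 TPM in sham mice. The 10 macrophage markers summed to 6146 TPM in KPC mouse 1, to 1553 to 2290 TPM in the other KPC mice and to 914.5 to 1490 TPM in sham mice. Each of those 10 was higher on average in KPC mice, 9 with an unadjusted p under 0.05 and 0 with an adjusted p under 0.05 (limma). Of all genes tested, 7.61% were higher in KPC at an unadjusted p under 0.05 and 0.0493% at an adjusted p under 0.05. The 8 monocyte and neutrophil markers summed to 965.7 TPM in KPC mouse 1, to 137.1 to 248 TPM in the other KPC mice and to 69.5 to 135.4 TPM in sham mice, with 8 of 8 higher on average in KPC mice, 4 with an unadjusted p under 0.05 and 0 called. The 7 T cell markers summed to 7.75 to 11.9 TPM in KPC mice and 4.88 to 7.97 TPM in sham mice, with 7 of 7 higher on average in KPC mice, 3 with an unadjusted p under 0.05 and 0 called. The 6 red cell markers summed to 40710 TPM in KPC mouse 1, to 8549 to 20270 TPM in the other KPC mice and to 4748 to 12870 TPM in sham mice. All 6 were higher on average in KPC mice, 1 with an unadjusted p under 0.05 and 0 called. The 7 brown or beige fat markers summed to 152.9 to 270.1 TPM in KPC mice and 114.2 to 388.5 TPM in sham mice. Most of that was Cox8b, at 140.6 to 253.5 TPM in KPC mice and 107.3 to 329 TPM in sham mice. Ucp1, the uncoupling protein that defines brown and beige fat, was low, at 0.624 to 13.4 TPM in KPC mice and 0.0341 to 29.3 TPM in sham mice. The 12 skeletal muscle markers ran to 103 to 337.6 TPM in KPC mice and reached 1839 and 5213 TPM in sham mice 4 and 5, against 120.7 to 723.3 TPM in the other sham mice. All 12 were lower on average in KPC mice (median log2 difference -2.90), 5 with an unadjusted p under 0.05 and 0 called. Of all genes tested, 5.91% were lower in KPC at an unadjusted p under 0.05. Epididymis and testis markers summed to at most 0.491 TPM in KPC mice and 0.0518 TPM in sham mice.

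No complex I subunit passed the test between KPC and sham mice. Differences were tested by limma, with a variance trend, in log2(normalized count + 1). The fit covered the 14203 genes whose mean normalized count was 10 or more, with Benjamini-Hochberg adjustment over all of them and a threshold of 0.05. All 42 subunits were tested and 0 were called, where 0.0563% of the genes tested were called in either direction, 7 higher (0.0493%) and 1 lower (0.00704%) in KPC. The smallest adjusted p of a subunit was 0.401, for Ndufa10. At an unadjusted p under 0.05, 0 of 42 passed, against 13.5% of all genes, 7.61% higher and 5.91% lower in KPC. On the scale of normalized counts, the groups were without overlap for 0 of 42, against 4.03% of all genes, 2.75% with KPC above and 1.28% with KPC below.

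The differences were small and mostly below 0. The log2 difference, KPC minus sham, was negative for 34 subunits and positive for 8, with a median of -0.09, while 53.1% of all genes tested were negative with a median of -0.02. By genome, 27 of 35 nuclear subunits were negative (median -0.08) and 7 of 7 mitochondrially encoded ones (median -0.20). These counts include Ndufa9, listed at 0 in 7 libraries, and without it 33 of 41 subunits and 26 of 34 nuclear ones (median -0.08) were negative. The median 95% interval reached 0.25 to either side of the difference for nuclear and 0.53 for mitochondrially encoded subunits. These intervals are not adjusted for the 14203 genes tested. With 5 mice a group, true log2 changes within those widths could have been missed for a typical subunit, and no detection limit was computed. Changes beyond them could also miss the adjusted threshold, which is stricter. Leaving out 1 mouse at a time gave 18 (without KPC mouse 4) to 32 (without KPC mouse 1) negative nuclear subunits of 35. Without sham mouse 1 the number was 22, so the count rests in part on single libraries of both groups.

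**Figure D1:**
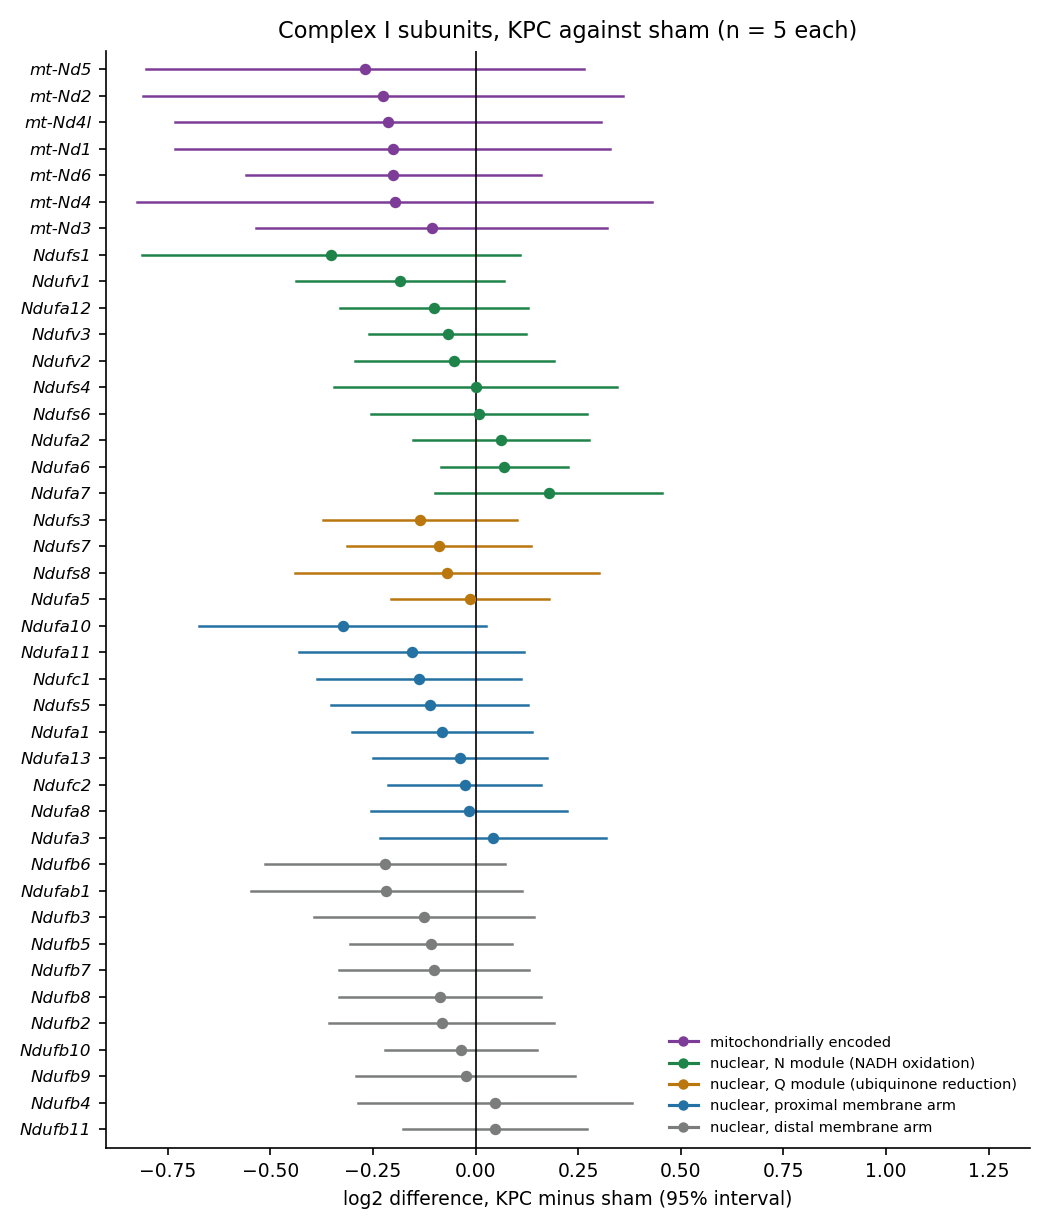
Log2 difference, KPC minus sham (x axis, points), with its 95% interval (lines) for 41 of the 42 complex I subunits, coloured by genome and module; Ndufa9, listed at 0 in 7 libraries, is left out. All 41 intervals include 0, and the 7 mitochondrially encoded subunits at the top have the widest group of intervals.

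The mitochondrially encoded subunits, the core of the membrane arm, were the most abundant. Mean levels in KPC mice ran over mt-Nd4l, mt-Nd4, mt-Nd1, mt-Nd2, mt-Nd3, mt-Nd6 and mt-Nd5, and the order in sham mice was the same. This is an order of listed TPM. Since mt-Nd4l and mt-Nd4 share 7 bases on 1 strand, their listed levels need not be those of separate RNAs. In both groups the means of mt-Nd4 and mt-Nd1 lay closer together than the SD of mt-Nd1. mt-Nd1, where the membrane arm meets the Q module, had 6165, 10240, 11780, 9365 and 10960 TPM in KPC mice 1 to 5 and 12950, 11690, 10110, 11630 and 9706 TPM in sham mice 1 to 5. KPC mouse 1 lay below the other 9 mice, which were mixed. mt-Nd2, one of the antiporter-like subunits that move protons, had 4008, 8958, 9239, 7680 and 8793 TPM in KPC mice and 10690, 9114, 7894, 9293 and 7688 TPM in sham mice. Here too the groups overlapped, with KPC mouse 1 far below the rest.

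mt-Nd3, whose loop lies near the ubiquinone site, had 3827, 6038, 6861, 5547 and 6899 TPM in KPC mice and 7917, 6657, 5090, 6211 and 5921 TPM in sham mice. The KPC mice other than mouse 1 fell inside the sham range. mt-Nd4l, a small subunit of the proximal arm, had 8023, 18420, 20750, 16620 and 17520 TPM in KPC mice and 20020, 19540, 16580, 19170 and 16880 TPM in sham mice. KPC mice held both the highest and the lowest value. mt-Nd6, the only subunit gene on the minus strand of the mitochondrial genome, had 3007, 4702, 5197, 4985 and 5807 TPM in KPC mice and 5459, 5579, 5288, 5541 and 5351 TPM in sham mice. The sham mice lay close together, with 4 KPC mice below and 1 above all of them.

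The other antiporter-like subunits form the distal arm. mt-Nd4 had 5502, 11430, 12250, 10720 and 11500 TPM in KPC mice and 12520, 12240, 10690, 11790 and 10930 TPM in sham mice. mt-Nd5, at the tip, had 1932, 3978, 4225, 3830 and 4024 TPM in KPC mice and 4168, 4597, 4125, 4363 and 4154 TPM in sham mice. In mt-Nd5 every KPC mouse but mouse 3 was below every sham mouse, and in mt-Nd4 only KPC mouse 1 was.

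**Figure D2:**
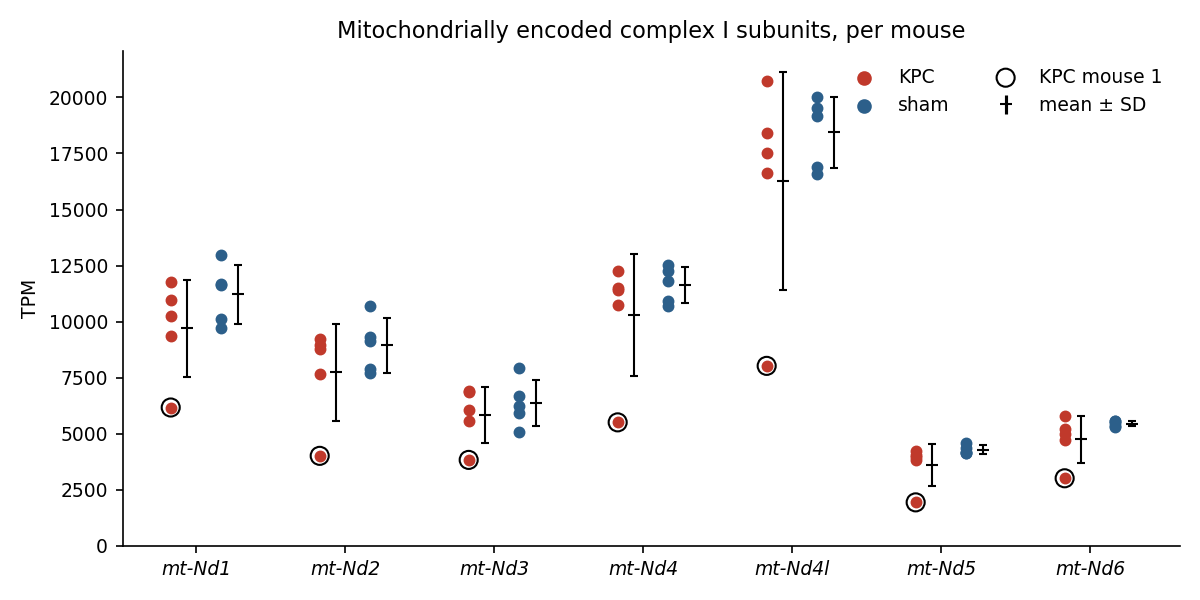
Levels in TPM (y axis, linear) of the 7 mitochondrially encoded subunits (x axis) in each KPC mouse (red, left of each pair) and sham mouse (blue), with mean ± SD over 5 mice; black rings mark KPC mouse 1. The ringed mouse is lowest for every subunit, at 8023 TPM for mt-Nd4l and 1932 TPM for mt-Nd5, while the other KPC mice share the range of the sham mice or lie near it.

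mt-Nd5 had the most negative log2 difference of the 7, at -0.27 (SE 0.24, limma, adjusted p = 0.649), and mt-Nd3 the least, at -0.11 (SE 0.20, adjusted p = 0.84). The others lay at -0.20 to -0.23, and adjusted p-values of the 7 were 0.613 to 0.84. These averages rest on 1 library. Measured against the sham mean, the median over the 7 subunits was -0.98 in KPC mouse 1 and -0.02 in the mean of KPC mice 2 to 5. Without KPC mouse 1, mt-Nd3 and mt-Nd4l had differences of 0.02 and 0.01, and mt-Nd5 of -0.08.

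The sum of the 7 was 32463, 63769, 70308, 58745 and 65509 TPM in KPC mice 1 to 5 and 73734, 69421, 59780, 67999 and 60637 TPM in sham mice 1 to 5. It averaged 58160 ± 14900 TPM in KPC mice and 66310 ± 5970 TPM in sham mice (SD, n = 5 each), and 64580 ± 4770 TPM in the 4 KPC mice other than mouse 1. The complex I share of all mitochondrially encoded mRNA was 22.5% in KPC mouse 1, the lowest, 23.8% to 24.7% in the other KPC mice and 23.7% to 25% in sham mice. The 6 other mitochondrial mRNAs were also low in KPC mouse 1, with a median of -0.76 against the sham mean on the log2 scale.

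The sum of the 35 nuclear subunits was 8324, 8525, 7704, 7514 and 8512 TPM in KPC mice 1 to 5 and 8748, 8795, 8840, 8985 and 7791 TPM in sham mice 1 to 5. It averaged 8116 ± 474 TPM in KPC mice and 8632 ± 478 TPM in sham mice, a gap of about 1 SD, with sham mouse 5 inside the KPC range. The ratio of the mitochondrial to the nuclear sum was 3.9, 7.48, 9.13, 7.82 and 7.70 in KPC mice and 8.43, 7.89, 6.76, 7.57 and 7.78 in sham mice. In KPC mouse 1 the mitochondrial sum was the lowest of 10 and the nuclear sum in TPM was not, and that library had the lowest ratio. The place of the nuclear sum depends on the scale. With TPM rescaled without the mitochondrially encoded genes, it was 10750, 12790, 12250, 11040 and 12960 in KPC mice and 14040, 13800, 13030, 13700 and 11550 in sham mice. On that scale KPC mouse 1 was the lowest of 10, followed by KPC mouse 4, and the sum averaged 11960 ± 1010 in KPC mice and 13220 ± 1010 in sham mice, and 12260 ± 868 in KPC mice without mouse 1. The ratio averaged 7.20 ± 1.96 in KPC mice and 7.69 ± 0.606 in sham mice, and 8.03 ± 0.744 in KPC mice without mouse 1, so its direction turned when that library was left out.

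**Figure D3:**
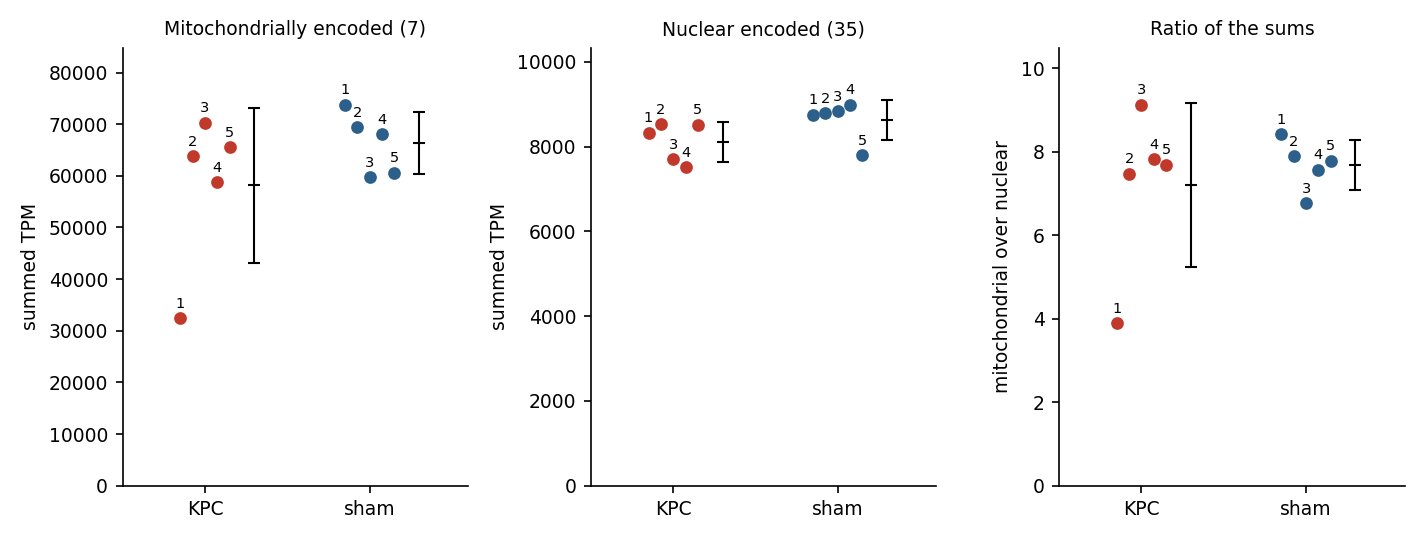
Summed TPM of the 7 mitochondrially encoded subunits (left panel), of the 35 nuclear subunits (middle) and the ratio of both sums (right) in each KPC mouse (red) and sham mouse (blue), numbered as in the labels, with mean ± SD over 5 mice. KPC mouse 1 lies apart in the left panel, at 32463 TPM, and in the right panel, at a ratio of 3.9, and inside the range of the other KPC mice in the middle panel, at 8324 TPM, a position that depends on the scale.

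Nuclear subunits were listed over a wide range of levels, with the highest mean at 636.1 ± 91.8 TPM in KPC mice and 627.6 ± 25.9 TPM in sham mice for Ndufa3, a small accessory subunit of the proximal arm. Ndufa3 had 770.4, 675.1, 577.3, 533.4 and 624.2 TPM in KPC mice and 607.9, 667.6, 602.7, 624.5 and 635.5 TPM in sham mice. KPC mice spread to both sides of the sham mice. At the other end was Ndufa9, an accessory subunit of the Q module that lies beside the ubiquinone channel. Ndufa9 was listed at 0, 0, 0, 0 and 5.49 TPM in KPC mice and at 0, 0, 5.51, 2.34 and 0 TPM in sham mice. It is listed at 0 in 7 of 10 libraries, although every cell with mitochondria uses it, and an exact 0 in a file without reads can be a failed estimate, so no fold is given. Ndufs8, an iron-sulfur core subunit of the Q module, was listed at 10.1 ± 1.41 TPM in KPC mice and 10.8 ± 1.18 TPM in sham mice, and Ndufs4, an accessory subunit of the N module, at 24.1 ± 2.58 TPM in KPC mice and 24.8 ± 4.20 TPM in sham mice. Every other nuclear subunit had a higher mean than Ndufs4.

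**Figure D4:**
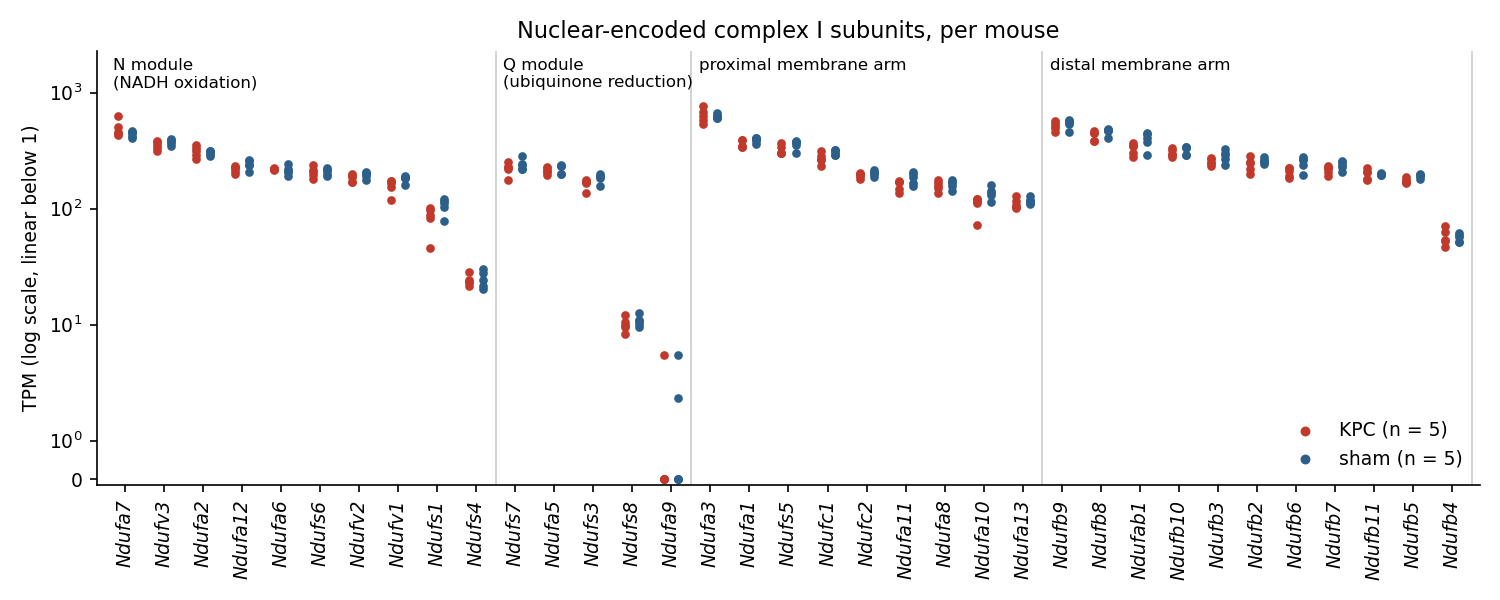
Levels in TPM (y axis, log scale above 1 and linear below) of the 35 nuclear subunits (x axis, grouped by module and ordered by mean level) in each KPC mouse (red, left of each pair) and sham mouse (blue). KPC and sham mice overlap for every subunit, and Ndufa9, listed at 0 in 7 libraries, and Ndufs8 lie below all others.

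The nuclear genes lie on many chromosomes. On GRCm38 with GENCODE vM21, and all protein-coding, Ndufs1 is at chr1:63143596-63176833 and Ndufa10 at chr1:92439010-92473860, both on the minus strand of chromosome 1. Ndufv1 is at chr19:4007384-4012806 and Ndufs3 at chr2:90894634-90904827, also on the minus strand, as are Ndufb6 at chr4:40270591-40279421 and Ndufab1 at chr7:122085403-122101886. Ndufa7 (chr17:33824572-33838317) and Ndufa11 (chr17:56717767-56722141) are on the plus strand of chromosome 17.

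In the N module, 5 subunits had negative and 5 positive differences, with a median of -0.03. Ndufs1, the large core subunit with several iron-sulfur clusters, had 46.2, 96.6, 101.2, 88.1 and 83.3 TPM in KPC mice and 116, 104.3, 120.5, 112 and 77.7 TPM in sham mice. All KPC mice were below 4 of the sham mice, and sham mouse 5 lay among them. Its log2 difference was -0.35 (SE 0.21, limma, adjusted p = 0.48), the most negative of the nuclear subunits apart from Ndufa9. It was -0.17 without KPC mouse 1 and -0.47 without sham mouse 5. Ndufv1, the flavoprotein that binds NADH and FMN, had 117.8, 173.2, 154.1, 172.8 and 167.3 TPM in KPC mice and 184.2, 188.4, 182.4, 190.9 and 160.2 TPM in sham mice. All KPC mice were below 4 of the sham mice, with sham mouse 5 among them, and the difference was -0.18 (SE 0.12, limma, adjusted p = 0.496). Without KPC mouse 1 it was -0.10.

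The positive differences of the N module were led by Ndufa7, an accessory subunit of the matrix arm. Ndufa7 had 630.3, 507.1, 428, 437.3 and 455.8 TPM in KPC mice and 405.5, 463.6, 451.6, 462.4 and 420.7 TPM in sham mice. KPC mice 1 and 2 lay above all sham mice, and the difference was 0.18 (SE 0.13, limma, adjusted p = 0.554). It was 0.07 without KPC mouse 1. Ndufa6, an accessory subunit of the LYR family, had 220.8, 215.9, 219.6, 224.3 and 219.3 TPM in KPC mice and 192.7, 208.9, 241.6, 221.4 and 210.4 TPM in sham mice. The KPC mice were the tighter group and lay within the sham range, with a difference of 0.07 (SE 0.07, limma, adjusted p = 0.69). Ndufa2, a small thioredoxin-like accessory subunit, had 350.7, 314.3, 268.3, 287.7 and 336.9 TPM in KPC mice and 287.4, 312.3, 315.1, 310.3 and 295.9 TPM in sham mice. Here the KPC mice spread to both sides, with a difference of 0.06 (SE 0.10, limma, adjusted p = 0.816) that ran from 8e-04 to 0.12 when KPC mouse 1 or KPC mouse 4 was left out. The differences of Ndufa6 and Ndufa2 turned negative, to -0.02 and -0.03, when TPM were rescaled without the mitochondrially encoded genes.

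In the Q module the 4 differences other than that of Ndufa9 were negative, with a median of -0.08. Ndufs3, a core subunit of the matrix arm and the one with the smallest p of this module, had 136.9, 175.2, 172.2, 165.2 and 169.6 TPM in KPC mice and 192.2, 183.5, 198.2, 190 and 156.2 TPM in sham mice. All KPC mice were below 4 of the sham mice, and sham mouse 5 lay below 4 of the KPC mice. The difference was -0.13 (SE 0.11, limma, adjusted p = 0.601), and it was -0.08 without sham mouse 1 and -0.21 without sham mouse 5. Ndufs7, the core subunit that holds the last iron-sulfur cluster before ubiquinone, had a difference of -0.09 and Ndufa5, an accessory subunit of the same module, of -0.01.

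Of the 14 subunits of the proximal membrane arm, 13 had a negative difference, with a median of -0.13. Ndufa10, an accessory subunit on the matrix side, had 72.3, 111.3, 120.6, 115.4 and 121.1 TPM in KPC mice and 159.8, 142.4, 132.1, 136.4 and 114.2 TPM in sham mice. All KPC mice were below 4 of the sham mice, and sham mouse 5 lay among the KPC mice. It averaged 108.1 ± 20.5 TPM in KPC mice and 137 ± 16.5 TPM in sham mice, with a log2 difference of -0.32 (SE 0.16, 95% interval -0.67 to 0.03, unadjusted p = 0.0662 and adjusted p = 0.401 by limma). Without KPC mouse 1 the difference was -0.20, and without sham mouse 5 it was -0.40. Ndufa11, a membrane subunit resembling the Tim17 family of import proteins, had 169.4, 174.7, 147.3, 137.8 and 170.9 TPM in KPC mice and 188, 165.7, 198.2, 206.7 and 155.4 TPM in sham mice. The upper 3 sham mice lay above all KPC mice, the groups were otherwise mixed, and the difference was -0.16 (SE 0.13, limma, adjusted p = 0.602), or -0.07 without KPC mouse 4.

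Of the 13 subunits of the distal membrane arm, 11 had a negative difference, with a median of -0.10. Ndufb6, a single-pass accessory subunit, had 212.8, 224.6, 193.2, 184.5 and 222.8 TPM in KPC mice and 279.5, 237.5, 261.1, 269 and 196.5 TPM in sham mice. All KPC mice were again below the sham mice other than mouse 5, and the difference was -0.22 (SE 0.13, limma, adjusted p = 0.486), or -0.13 without sham mouse 1. Ndufab1, the mitochondrial acyl carrier protein, which also serves lipoic acid and iron-sulfur cluster synthesis, had 276.5, 365.6, 349.9, 304.6 and 349.3 TPM in KPC mice and 452.4, 377.8, 439.9, 410.6 and 291.2 TPM in sham mice. The same 4 sham mice were above all KPC mice, and the difference was -0.22 (SE 0.15, limma, adjusted p = 0.544), or -0.12 without sham mouse 1 and -0.34 without sham mouse 5. Ndufb11, an X-linked accessory subunit, had 226.4, 207.7, 177.5, 181.2 and 209.1 TPM in KPC mice and 193.3, 202.1, 199.6, 197.3 and 195.4 TPM in sham mice. KPC mice lay on both sides of a tight sham group, with a difference of 0.05 (SE 0.10, limma, adjusted p = 0.866) that was -0.01 without KPC mouse 1.

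Sham mouse 5 lay low in Ndufs1, Ndufv1, Ndufs3, Ndufa10, Ndufb6 and Ndufab1 alike. Of the 34 nuclear subunits other than Ndufa9, it had the lowest level of the 10 mice for 7 on the scale of normalized counts, KPC mouse 4 for 22 and KPC mouse 1 for 5, while sham mouse 1 had the highest for 21. Such ranks depend on the scale. Summed over the 35 nuclear subunits, sham mouse 1 was highest in normalized counts, at 91986. In TPM its sum, 8748, was below those of sham mice 2 to 4, at 8795 to 8985. KPC mouse 4 had the lowest sum on both scales, at 65251 and 7514. Without sham mouse 5, 4 subunits (Ndufs1, Ndufa10, Ndufab1 and Ndufb6) had an unadjusted p under 0.05, against 0 with all mice, and 13.8% of all genes did. Their adjusted p-values were then at least 0.301 (limma). Sham mouse 5 was also the library with the most skeletal muscle marker RNA, 5213 TPM, and the part of muscle RNA in its values was not tested.

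KPC mouse 1 did not have uniformly low nuclear subunits. Measured against the sham mean on the log2 scale, its median was 0.01 over the nuclear subunits, against -0.98 over the mitochondrially encoded ones. Ndufs1 stood at -1.08, Ndufa10 at -0.81 and Ndufv1 at -0.52 in this mouse, against -0.17, -0.20 and -0.10 in the mean of KPC mice 2 to 5. Ndufa7 stood at 0.62, Ndufb4 at 0.44 and Ndufa3 at 0.40 in KPC mouse 1, against 0.07, -0.05 and -0.05 in the mean of KPC mice 2 to 5. By role, the 6 nuclear core subunits had a median of -0.32 and the 29 accessory ones of 0.03 in this mouse, against -0.09 and -0.08 in the mean of the other KPC mice. That contrast rests on 1 library, and the roles overlapped in it. The core subunits Ndufv2 and Ndufs8 stood at 0.03 and -0.01, while the accessory Ndufa10 was below every core one but Ndufs1. A part of role in these values was not tested. The adipocyte markers of KPC mouse 1 had a median of -0.78, its macrophage markers of 1.97 and its monocyte and neutrophil markers of 3.37 against the sham mean, and the part of any of them in its complex I levels was not tested.

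**Figure D5:**
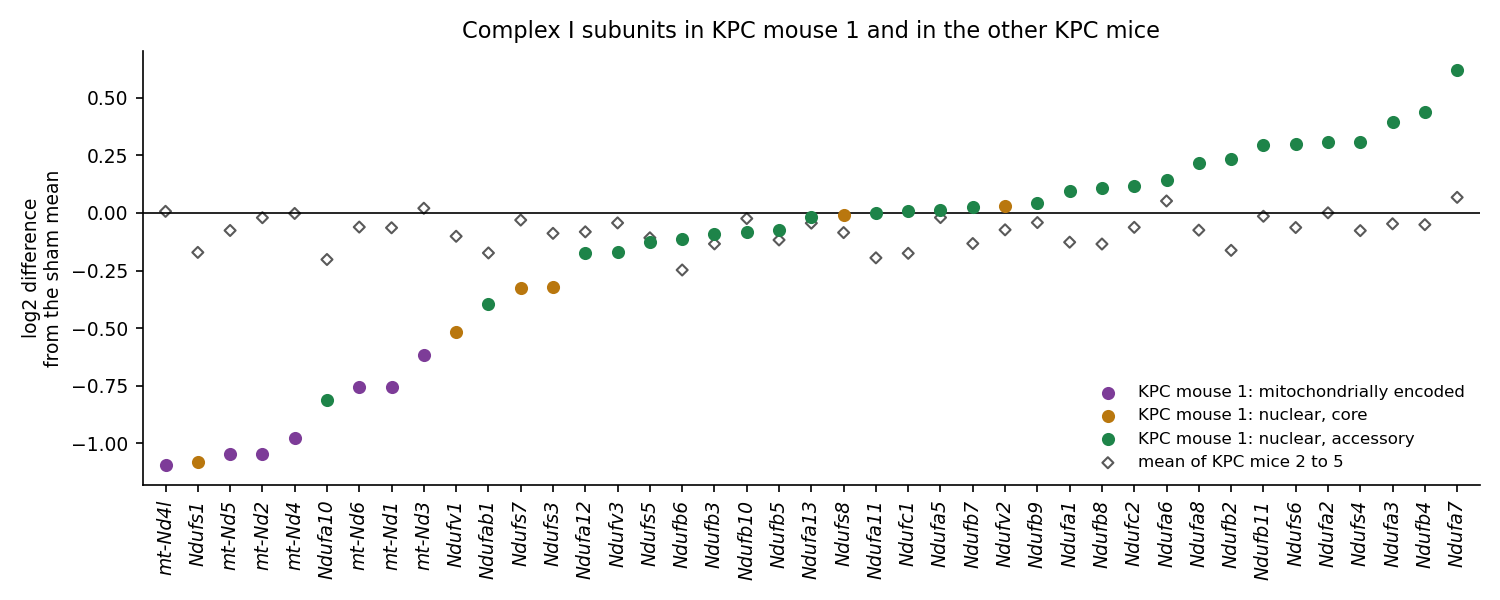
Log2 difference from the sham mean (y axis) for 41 complex I subunits (x axis, ordered by value) in KPC mouse 1 (filled points, coloured by genome and role) and in the mean of KPC mice 2 to 5 (open diamonds). The filled points run from below -1.0 for mt-Nd4l and Ndufs1 to 0.62 for Ndufa7, while the diamonds stay between -0.25 and 0.07.

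The genes that build, transcribe and neighbour complex I were taken from lists of its pathway, and 0 of them were called. Of 19 assembly factors tested, 13 had a negative and 6 a positive difference, with a median of -0.15 and 0 at an unadjusted p under 0.05. Ndufaf4 averaged 10.2 ± 0.558 TPM in KPC mice and 12.8 ± 1.96 TPM in sham mice (log2 difference -0.28, limma, adjusted p = 0.386). Ecsit averaged 24.7 ± 2.92 TPM in KPC mice and 29.2 ± 2.08 TPM in sham mice (-0.21, limma, adjusted p = 0.389), and Ndufaf1 24.8 ± 4.21 TPM in KPC mice and 29.9 ± 1.38 TPM in sham mice (-0.25, limma, adjusted p = 0.411). Ecsit and Ndufaf1 both belong to the assembly complex of the membrane arm.

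Of 27 genes of mitochondrial transcription, RNA processing and DNA maintenance, 20 had a negative difference (median -0.06), and 3 had an unadjusted p under 0.05, all lower in KPC, as had 5.91% of all genes. They were Tfb2m, the transcription initiation factor, Elac2, which cuts the 3' ends of mitochondrial tRNAs, and Polg2, the accessory subunit of the mitochondrial DNA polymerase. Elac2 averaged 13.4 ± 1.75 TPM in KPC mice and 16.5 ± 1.36 TPM in sham mice, and on the scale of normalized counts all KPC mice lay below all sham mice, as for 1.28% of all genes. In TPM the groups overlapped, with KPC mouse 4 at 14.95 TPM and sham mouse 1 at 14.74 TPM. Its log2 difference was -0.28, that of Tfb2m -0.28 and that of Polg2 -0.37, and their adjusted p-values were 0.286 to 0.311 (limma). Tfam, which packages mitochondrial DNA and starts its transcription, averaged 22.2 ± 3.49 TPM in KPC mice and 23.0 ± 3.38 TPM in sham mice (-0.02, limma, adjusted p = 0.962).

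Among 12 tested regulators of mitochondrial biogenesis, 7 differences were negative and 5 positive, and 0 had an unadjusted p under 0.05. Ppargc1a, the coactivator known for driving this programme, was low, at 1.22 ± 0.955 TPM in KPC mice and 1.19 ± 0.706 TPM in sham mice. Nrf1 averaged 8.06 ± 1.40 TPM in KPC mice and 8.14 ± 2.34 TPM in sham mice, and Esrra, an estrogen-related receptor, 26.8 ± 1.62 TPM in KPC mice and 29.3 ± 3.39 TPM in sham mice. None of these 3 differed beyond the spread between mice, with adjusted p-values of 0.792 to 0.924 (limma).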

How the data were processed

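RNA-seq of visceral fat from 5 KPC and 5 sham mice was used, 1 column per mouse in each deposited table. The authors quantified transcripts with tools that, per the submitters' processing notes, were Salmon, DESeq2 and DESeq on mm10. Tool versions, gene annotation and strand setting: not given in the sources used here. The authors deposited normalized counts, treated as a non-negative signal, and TPM. Multiples of 1 read could not be recovered: at the best factor per library, 31.1% to 47.3% of values up to 30 were within 0.05 of a whole number, so no count model was run and depth in reads is unknown.

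The 14203 genes whose mean normalized count was 10 or more were fitted by limma (3.58.1, R 4.3.3) in log2(normalized count + 1), using a variance trend and no block, with Benjamini-Hochberg adjustment. Log2 differences understate changes of low genes. The code was tested on simulated data. Sums, shares and ratios are described per mouse with no test. Members and lists were chosen with earlier results of these data known. Given in full are the 7 mitochondrially encoded subunits, the 8 nuclear ones with the smallest p, the 4 of the other sign with the smallest p, and the nuclear ones with the highest and lowest mean TPM. From each pathway list the 3 genes with the smallest p, and Ppargc1a, Tfam, Nrf1, Esrra and Ndufa4, are named. Coordinates come from GENCODE vM21 and promoters from RefSeq. Alternatives changed the pseudocount, filter, table, scaling, variance model, block and mice used. Mitochondrial rRNAs, Coa1, Nnt, Fastkd4, Atp5o, Atp5f1 and Mrpl33 were not analysed here. Sample columns of no listed mouse numbered 0.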

Additional observations from a re-analysis of the deposited data

Results flagged for a closer look

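A level was picked out when the highest or lowest of the 5 mice of a group lay far from the nearest of the others, with a gap of more than 0.71 of the group's range. Of 166 such groups of values (84 of them of complex I subunits), 15 were picked out, where chance gives about 1 in 20, and KPC mouse 1 was the mouse in 10 of the 15.

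Among the subunits, KPC mouse 1 was far below the other KPC mice for mt-Nd4 at 5502 TPM (next 10720 TPM), mt-Nd5 at 1932 TPM (next 3830 TPM), Ndufa10 at 72.29 TPM (next 111.3 TPM) and Ndufs3 at 136.9 TPM (next 165.2 TPM). Beyond complex I it was far below them for Ecsit, an assembly factor, at 19.58 TPM (next 25.35 TPM), mt-Cytb of complex III at 8091 TPM (next 14360 TPM) and Sdha of complex II at 165.4 TPM (next 326.3 TPM). The same held for Uqcrc1 of complex III at 138.3 TPM (next 192.3 TPM) and for the ATP synthase subunits Atp5a1 at 323.8 TPM (next 479.6 TPM) and Atp5b at 1028 TPM (next 1520 TPM). KPC mouse 5 was the 1 KPC mouse in which Ndufa9 was not listed at 0, with 5.493 TPM.

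Sham mouse 5 was far below the other sham mice for Ndufb8 at 407.1 TPM (next 471 TPM), Ndufv1 at 160.2 TPM (next 182.4 TPM) and the summed level of the 35 nuclear subunits at 7791 TPM (next 8748 TPM). Sham mouse 4 was far above the other sham mice for Ppargc1a at 2.446 TPM (next 0.957 TPM).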

How the results depend on the processing

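Across 23 alternatives, 0 complex I subunits were called in any of them. Of 437 alternative values of 19 subunits given in full, 425 kept their sign, 12 changed it and 0 crossed the threshold; of 874 values of named pathway genes, 14 changed sign and 0 crossed it. With TPM in place of normalized counts, 2 of 42 subunits had an unadjusted p under 0.05 by limma (Ndufa10 and Ndufb6), against 12.5% of all genes. With TPM rescaled without mitochondrially encoded genes the number was 2 (Ndufa11 and Ndufb6), against 13.7% of all genes. Without KPC mouse 1 and sham mice 4 and 5, chosen after seeing the data, it was 4 (Ndufs1, Ndufa10, Ndufab1 and Ndufb6), against 11.4% of all genes. Under TPM rescaled in this way, 34 of 35 nuclear subunits were negative (median -0.17, all genes -0.09), and Ndufa2 (-0.0281), Ndufa3 (-0.0483), Ndufa6 (-0.0199), Ndufb11 (-0.0421) and Nrf1 (-0.0422) were negative. Without those 3 mice Ndufa2 (-0.0386), Ndufa3 (-0.079) and Ndufb11 (-0.0561) were negative and Ppargc1a (0.5365) positive. Of all genes, 7 were called higher with all mice, but 3 under the replicate block, 3 with a block on the first number of the title, 2 without a variance trend, 2 with TPM, 4 with rescaled TPM and 0 without the 3 mice; 1 was called lower, but 0 in each of the last 3. The cause was not tested.

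Leaving out 1 mouse at a time gave 1 (without KPC mouse 4) to 66 (without KPC mouse 1) genes called higher and 1 to 4 called lower. It gave 0 to 4 of 42 subunits with an unadjusted p under 0.05 by limma. Of all genes, 9.23% (without sham mouse 4) to 14.7% (without KPC mouse 5) were then under 0.05. Log2 differences then ran over -0.2031 to 0.0206 for mt-Nd3, -0.332 to 0.0072 for mt-Nd4l, -0.3049 to 0.004 for mt-Atp8, -0.0469 to 0.133 for Ndufa3 and -0.0142 to 0.1134 for Ndufb11. They ran over -0.1563 to 0.0076 for Esrra, -0.0359 to 0.1841 for Nrf1, -0.5497 to 0.2354 for Ppargc1a and -0.1089 to 0.0543 for Tfam. The nuclear median ran from -0.11 to -0.02 and the mitochondrial one from -0.29 to -0.02.

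Replicate numbers are shared between the groups, but same-numbered KPC and sham mice deviated together with correlations of only 0.005 to 0.191. The same-numbered sham mouse was the best-correlated one for KPC mice 2 and 5, but not for KPC mice 1, 3 and 4. The labels do not say that the numbers pair mice, and they were not taken to do so. With the replicate block, 0 subunits were called and the smallest adjusted p was 0.492 (limma). With the block on the first number of the title, whose meaning the labels do not give, Nrf1 was at -0.0512 and Tfam at 0.0608. With 5 mice a group and depth in reads unknown, true differences within the intervals given could have been missed. Since the intervals are unadjusted, larger differences could also miss the adjusted threshold.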

Other observations

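The nuclear genes of the other respiratory complexes also lay mostly below 0, and 0 were called. All 4 complex II subunits were negative (median log2 difference -0.21, and -0.13 in KPC mice 2 to 5), with Sdhb at 218 ± 30.1 TPM in KPC mice and 256.2 ± 21.6 TPM in sham mice. Of 9 complex III subunits 8 were negative, and Uqcrc1 averaged 183.1 ± 25.2 TPM in KPC mice and 232.4 ± 21.6 TPM in sham mice (-0.32, limma, unadjusted p = 0.0281 and adjusted p = 0.323). It was the 1 complex III subunit with an unadjusted p under 0.05, where 5.91% of all genes were lower at that threshold. Of 13 complex IV subunits 11 were negative. Cox7a2l was a positive one and had the smallest p, at 196 ± 25.1 TPM in KPC mice and 163.3 ± 24.1 TPM in sham mice (0.30, limma, unadjusted p = 0.0132 and adjusted p = 0.276). No other complex IV subunit had an unadjusted p under 0.05, where 7.61% of all genes were higher at that threshold. Cox7a1, an isoform of muscle and brown fat, averaged 27.2 ± 8.26 TPM in KPC mice and 38.6 ± 14.5 TPM in sham mice (-0.42, limma, adjusted p = 0.599). Ndufa4, once counted with complex I and now with complex IV, averaged 11.3 ± 2.80 TPM in KPC mice and 13.5 ± 3.30 TPM in sham mice (-0.21, limma, adjusted p = 0.77).

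Of 14 ATP synthase subunits 10 were negative, and Atp5b averaged 1515 ± 280.8 TPM in KPC mice and 1941 ± 203.4 TPM in sham mice (-0.34, limma, adjusted p = 0.426). Of 14 genes of electron carriers and their synthesis 13 were negative (median -0.22, and -0.12 in KPC mice 2 to 5). Among them were Coq7, an enzyme of ubiquinone synthesis, at 46.1 ± 10.4 TPM in KPC mice and 61.2 ± 10.2 TPM in sham mice (-0.39, limma, adjusted p = 0.402), and Cycs, cytochrome c, at 49.1 ± 8.33 TPM in KPC mice and 64.4 ± 12.2 TPM in sham mice (-0.35, limma, adjusted p = 0.417). Of 16 genes of import and cristae 13 were negative. Vdac1, a channel of the outer membrane, averaged 118.5 ± 14.3 TPM in KPC mice and 150.7 ± 11.5 TPM in sham mice, with all KPC mice below all sham mice in TPM and in normalized counts (-0.32, limma, unadjusted p = 0.0135 and adjusted p = 0.277). In normalized counts 1.28% of all genes had KPC below without overlap, and 5.91% were lower at an unadjusted p under 0.05. Of 22 mitochondrial ribosomal proteins 13 were negative, with a median of -0.02, equal to that of all genes at this rounding. In KPC mouse 1 their median stood at 0.22 against the sham mean, where complex II stood at -0.54 and the carriers at -0.58.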
